A study of Bos taurus with 12 samples.

Results

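The extracellular matrix and adhesion genes considered here hold 94 of the 14094 CpG sites that the authors listed as differentially methylated between dermal fibroblast cultures from young and old heifers. A listed site was a member when its promoter, exon or intron annotation carried the symbol of a collagen, laminin, ADAM or ADAMTS proteinase, matrix metalloproteinase (MMP) or its inhibitor (TIMP), fibrillin, fibulin, fibronectin, integrin, lysyl oxidase, cadherin, tenascin, thrombospondin, perlecan or versican. The 94 sites lay in 41 genes and at 87 CpG dinucleotides, because the cytosines of the 2 strands of a CpG were separate sites in the files. In all, 4414 listed sites were annotated to 2293 genes, and 838705 sites were tested.

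Fibroblasts had been grown from the skin of 6 Holstein heifers at 5 months of age (young cultures) and again from the same animals at 16 months (old cultures), which made 6 pairs. The animals had been picked from a larger group for an intermediate interleukin-8 response of their cells to lipopolysaccharide, and the DNA was taken from confluent cultures at passage 6 that received no treatment. Reduced representation bisulfite sequencing (RRBS) sequences CpG-dense fragments released by restriction enzymes, here TaqαI and then MspI, which cuts at CCGG. It gave for each cytosine the share of reads that kept their C, called methylation here, and the number of reads behind it. The deposited table holds methylation and no expression, so the cell type was not checked against marker genes, and no value below is a transcript level. The columns of that table name the animal and a letter, and the letters were matched to the ages through the study's supplementary lists, on which every direction below rests.

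Dermal fibroblasts make and remodel the matrix of the skin. They secrete fibrillar collagens, which ADAMTS proteinases trim into their mature form, and elastic fibre proteins such as fibrillins and fibulins, while MMPs and their TIMP inhibitors set how fast the matrix is turned over. Integrins tie the cell to this matrix and cadherins tie cells to each other. Methylated CpGs in a promoter usually accompany a silent gene, whereas methylation within a gene body is common in active genes.

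Methylation was higher in young cultures at 58 of the 94 sites (61.7%) and higher in old cultures at 36. Of the 41 genes, 22 held only sites of the first kind, 11 only sites of the second, and 8 held both. Among all listed sites annotated to a gene, 67.6% were higher in young cultures. The authors' list had been drawn from this very comparison, with an unadjusted P under 0.05 in a paired test, so the age differences below are a description of sites chosen for being different and carry no test. The study states no minimum difference, but one near 10 percentage points can be read from the list. Of the tested sites with a recomputed P under 0.05, 13858 of the 14129 that differed by 10 points or more were listed, against 33 of the 9965 that differed by less. The rule recomputed below is therefore an unadjusted P under 0.05 with a difference of at least 10 points, which all 94 members met. The list covered 1.68% of all tested sites (1.11% higher in young and 0.566% higher in old cultures). With Benjamini-Hochberg adjustment over all tested sites, 0 of the 94 passed, with limma as with the authors' test, while all 94 met the unadjusted rule with both. The unadjusted rule was met by 1.95% of all tested sites with limma. Of the 94 sites, 74 met it when the pairing was ignored (1.91% of all tested sites), 84 on an arcsine scale (1.7%), 65 with a quasi-binomial model of the reads (1.24%) and 46 with an exact sign-flip test over the 6 animals (0.776%). At sites with 10 or more reads in every culture, 14 members remained, and 1.06% of all such sites met the rule.

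The median size of the difference was 21.0 points (range 10 to 68.8), beside 18.7 points over all listed sites annotated to a gene. At 35 sites (37.2%) it was 25 points or more, against 25.8% of the annotated list. All 6 animals moved the same way at 46 sites (48.9%, against 42.0%). At 11 sites (11.7%) the lowest culture of the higher age lay above the highest culture of the other, which was so at 0.123% of all tested sites and at 7.32% of the annotated list. The young cultures lay above the old at 7 of the 11 (0.0936% of all tested sites) and the old above the young at 4 (0.0295%). These shares are partly set by the rule that made the list, and nothing is read from them beyond the description. The plot of differences by gene shows how the 94 sites spread over the families.

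**Figure D1:**
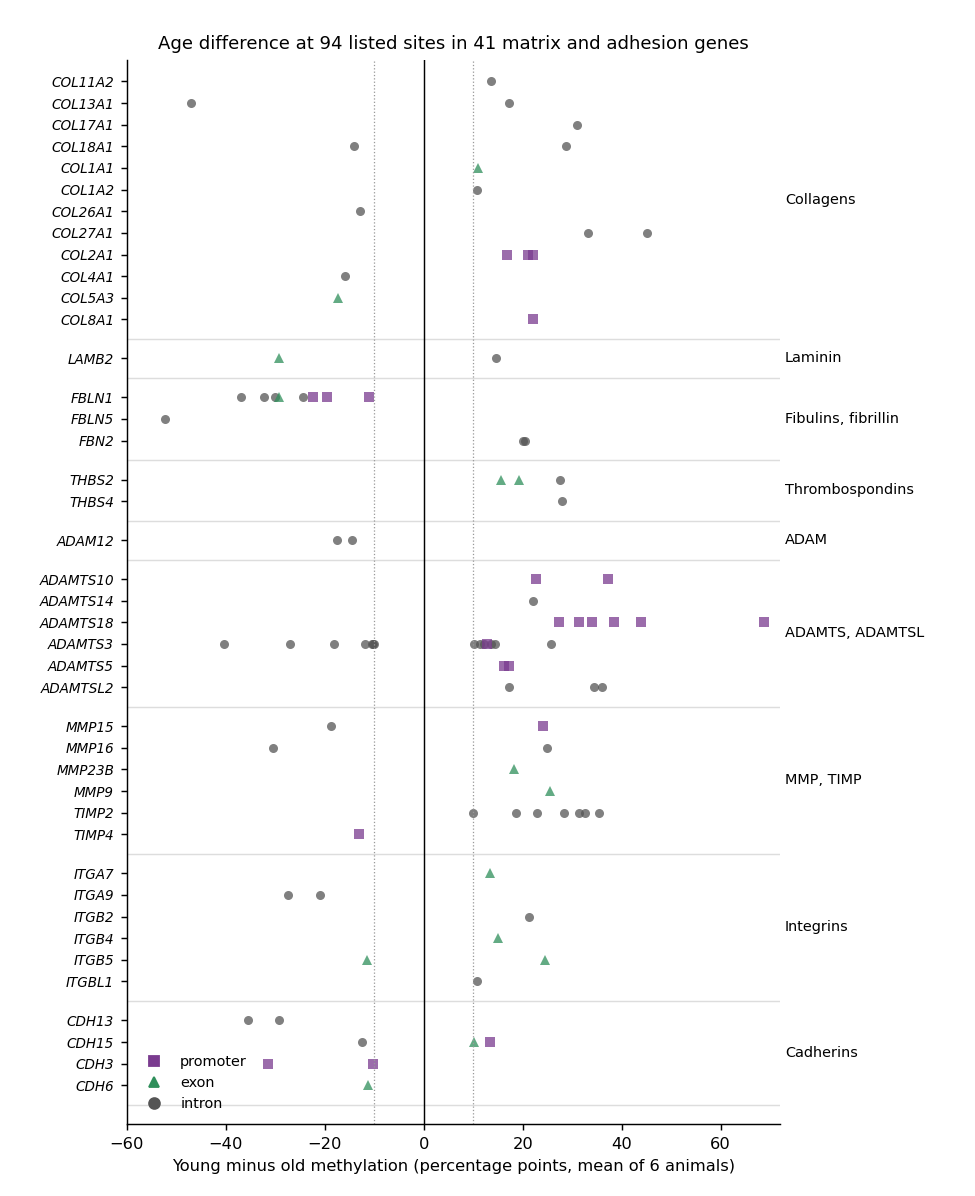
Young minus old methylation (percentage points, mean of 6 animals) at each of the 94 listed sites, by gene and family; squares are promoter sites (including sites that are also exonic or intronic), triangles exon sites and circles intron sites, and dotted lines mark 10 points in either direction. All 8 FBLN1 sites lie left of 0 and all 6 ADAMTS18 and 7 TIMP2 sites right of it, while the 14 ADAMTS3 sites fall on both sides.

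The depth was modest. Median coverage over the members was 12 to 14.5 reads in the young and 10 to 16 reads in the old cultures. A ratio of 50% from 12 reads has a 95% Wilson interval of 25.4 to 74.6%, and a culture at 0 with 12 reads allows a level of up to 25%. Such limits cover counting error only. Coverage was even in all 12 cultures at 19 sites (20.2%, against 18.4% of the annotated list), which is what counting both overlapping mates of a read pair would give. The study did count both mates, so reads can outnumber the DNA fragments behind them, and the limits above would then be too narrow. Leaving the even sites out only shortens the list of members, so the part of double counting in the results was not tested. Averaged over all tested sites, the cultures were alike (24.2 ± 0.537% in young, 23.8 ± 0.445% in old, SD, n = 6).

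By position in the gene, 23 members were promoter sites, 17 exon sites and 59 intron sites, with 5 sites counted in the promoter as well as the exon or intron. Promoters were defined in the study from 2500 bp before to 1000 bp after the transcription start. Of the promoter sites, 17 in 8 genes were higher in young cultures, with a median of 35.7% in young and 9.17% in old cultures, and 6 in 3 genes (FBLN1, CDH3 and TIMP4) were higher in old cultures, with medians of 14.3 and 29.6%. The share higher in young cultures was 73.9% for promoter sites, 64.7% for exon sites and 54.2% for intron sites. Over all listed sites of these classes it was 67.3, 68.1 and 66.6%. No gene had listed promoter sites in both directions.

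Collagens form the fibrils, networks and anchoring molecules of the matrix. Listed sites lay in 12 collagen genes, 12 sites higher in young and 5 higher in old cultures. The 3 sites of the COL2A1 promoter (fibrillar collagen of cartilage) lay within 15 bp of each other in a CpG island on chromosome 5, at positions 32449263, 32449276 and 32449277 (bosTau8, the build of the files, as for every position below). At the first of them methylation ran from 8 to 31% (median 21.5%) in young and from 0 to 8% (median 2.5%) in old cultures, a mean difference of 16.8 ± 9.62 points (SD of the paired differences, n = 6, also below). At the other 2, the strands of a single CpG, the means were 29.2 and 35.7% in young against 8.17 and 13.7% in old cultures. All 6 animals were higher when young at each of the 3 sites, although the ranges overlapped at this CpG and touched at the first site.

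The other collagen promoter site was in COL8A1, a short-chain collagen of vessel walls and other tissues (chromosome 1, position 43541909). Young cultures had 14 to 31% (median 23.5%) and all 6 old cultures were at 0, so the groups did not overlap. Its mean coverage was 11.6 reads, and the mean of the 7 unlisted positions within 250 bp differed by 3.90 points the same way.

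The largest difference among the collagens was in an intron of COL13A1, a transmembrane collagen of cell adhesion sites (chromosome 28, position 26316054). Methylation ran from 11 to 79% (median 32.5%) in young and from 67 to 100% (median 83%) in old cultures, a young minus old difference of -47.0 ± 27.8 points. All 6 animals were higher when old, but the highest young culture lay within the old range. A second intron site, 16.4 kb away at position 26332410, went the other way, with means of 80.5% in young and 63.2% in old cultures. An intron CpG of COL27A1, a fibrillar collagen, was listed on both strands (chromosome 8, positions 105233405 and 105233406) and was higher in young cultures by 33.2 ± 22.9 and 45.2 ± 22.6 points.

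COL1A1 and COL1A2 encode the chains of type I collagen, the main fibrillar collagen of skin, and each held a single listed site near the lower limit of the list. The COL1A1 exon site (chromosome 19, position 37100030) was at 0 to 27% (median 12.5%) in young and 0 to 12% (median 0%) in old cultures, a difference of 11.0 ± 9.92 points carried by 4 of the 6 animals. The COL1A2 intron site (chromosome 4, position 11638686) was at 8 to 33% (median 14.5%) in young and 0 to 17% (median 6%) in old cultures, a difference of 10.8 ± 7.68 points with 5 of 6 animals in that direction, on a mean of 25.8 reads. The groups overlapped at both sites, and the opposite strand of the COL1A2 CpG differed by 2.00 ± 7.72 points.

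In the remaining collagens, COL18A1, whose protein is part of basement membranes, was higher in young cultures at an intron site on chromosome 1 (position 147001316) with no overlap between the groups, at 80 to 100% (median 100%) against 60 to 75% (median 63%). Another COL18A1 intron site was higher in old cultures by 14.2 points (young minus old -14.2). COL17A1, a hemidesmosome collagen, and COL11A2, a minor fibrillar chain, were higher in young cultures by 31.0 and 13.7 points. At COL17A1 the opposite strand differed by 3.17 ± 23.2 points and the 3 unlisted neighbours by -0.0556 points on average, and with the strands merged the difference was 17.7 points. The basement membrane chain COL4A1 (-16.0), the minor fibrillar chain COL5A3 (-17.3) and COL26A1 (-12.8) were higher in old cultures. At the COL4A1 site all 6 old cultures read 100% on a mean of 11.2 reads, and the young cultures 75 to 100%.

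LAMB2, a laminin chain of basement membranes, was the only laminin gene listed, with 2 sites 89 bp apart on chromosome 22 that went opposite ways. At the exon site (position 51469846) methylation was 17 to 40% (median 26%) in young and 43 to 80% (median 55%) in old cultures, with no overlap. At the intron site (position 51469935) it was 22 to 40% (median 33.5%) in young and 0 to 33% (median 18.5%) in old cultures. That second difference, 14.7 ± 13.8 points, was among the members closest to the P limit of the list. Mean coverage was 9.25 and 8.42 reads.

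FBLN1 encodes fibulin-1, a glycoprotein of elastic fibres and basement membranes that binds fibronectin. It held 8 listed sites on chromosome 5 between positions 116613779 and 116646163, namely 3 in the promoter, 4 in introns and 1 in an exon, and all 8 were higher in old cultures. The mean of the 8 sites per culture ran from 23.1 to 50.9% (median 35.3%) in young and from 53.6 to 67.8% (median 65.0%) in old cultures, without overlap, with group means of 37.7 ± 10.02 and 63.4 ± 5.45% (SD, n = 6). At 7 of the 8 sites all 6 animals moved that way, and at the remaining intron site (position 116624220) 5 did. Over the same 32.4 kb, the other 28 tested positions averaged 36.6% in young and 38.3% in old cultures, and 13 of them were higher in young and 14 in old cultures.

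The widest FBLN1 differences were at intron positions 116624219 and 116625276. At the former, young cultures had 14 to 58% (median 51.5%) and old cultures 62 to 100% (median 79%), a young minus old difference of -37.0 ± 14.6 points with no overlap between the groups. At the latter, young cultures had 33 to 86% (median 63.5%) and old cultures 75 to 100% (median 100%), and the ranges overlapped. The 3 promoter sites were lower on the whole, with young means of 14.8, 38.0 and 13.8% against old means of 34.3, 60.3 and 24.8%. At the exon site (position 116646163) the means were 29.8 and 59.0%, and its opposite strand differed by 11.8 points in the same direction (young minus old -11.8).

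**Figure D2:**
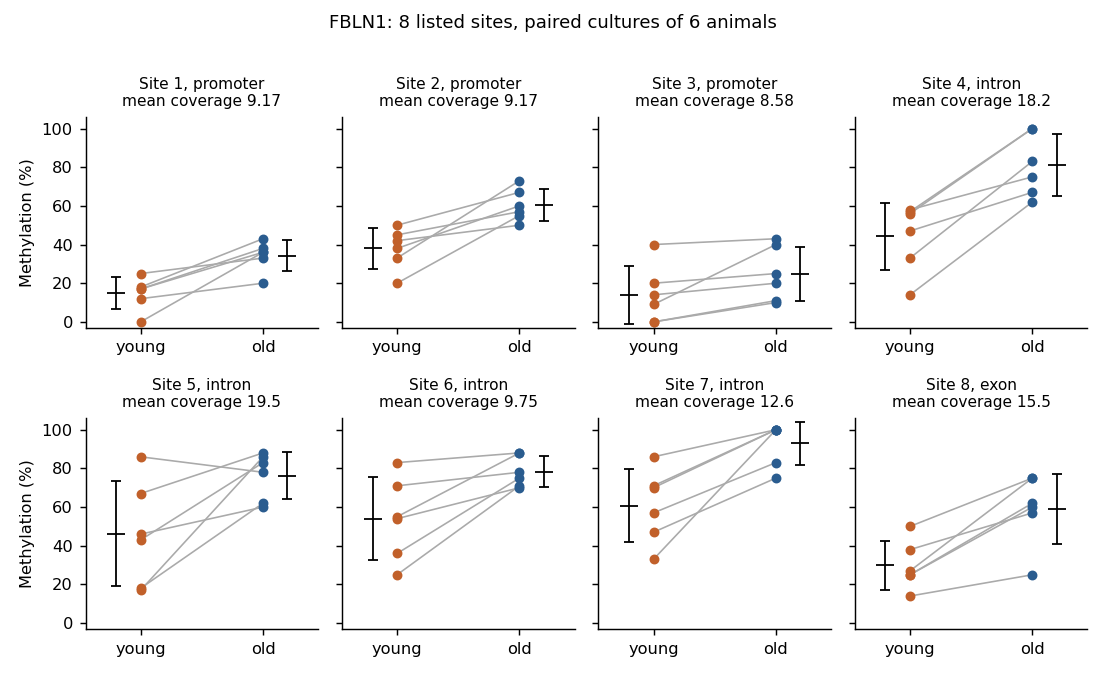
Methylation (%) at the 8 listed FBLN1 sites, in order of position; grey lines join the young and old culture of each of the 6 animals, black marks give mean ± SD, and each panel names the annotation and the mean coverage in reads. Old means exceed young means at every site, with young minus old differences from -37.0 points at site 4 to -11.0 points at site 3.

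FBLN5, fibulin-5, is needed for the assembly of elastic fibres. Its intron site on chromosome 21 (position 57227046) had the largest difference among the sites higher in old cultures, at 17 to 80% (median 35.5%) in young and 67 to 100% (median 100%) in old cultures. The young minus old difference was -52.3 ± 20.5 points and had the same sign in all 6 animals. Coverage was even in every culture there (mean 13 reads), and the opposite strand differed by -25.2 ± 28.8 points. FBN2, the fibrillin of early elastic fibres, went the other way at 2 intron sites 152 kb apart on chromosome 7, where young means of 56.0 and 39.8% stood against old means of 36.0 and 19.3%. The FBN2 site at position 26726141 had at least 10 reads in every culture, and all these counts were even. It ranged from 40 to 75% (median 58%) in young and from 20 to 55% (median 34%) in old cultures.

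Thrombospondins are matrix glycoproteins that bind cells, growth factors and proteinases, and the 4 listed sites in THBS2 and THBS4 were all higher in young cultures. In THBS2 (chromosome 9) the 2 exon sites at positions 104739646 and 104739667 differed by 15.7 and 19.3 points and the intron site at position 104757291 by 27.5 ± 20.2 points. At the last, young cultures had 56 to 89% (median 75%) and old cultures 40 to 64% (median 42%), with overlap. The THBS4 intron site (chromosome 10, position 10982395) was at 80 to 100% (median 86%) in young and 33 to 86% (median 67%) in old cultures. In each of the 4 sites, 5 of the 6 animals were higher when young. No tested position within 250 bp of the THBS4 site was unlisted, so no neighbour could be set beside it, whereas unlisted neighbours of the THBS2 sites averaged 10.5 and 14.4 points the same way.

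ADAMTS proteinases cut collagens, proteoglycans and other matrix proteins, and ADAMTSL proteins resemble them without the proteinase domain. This family held the most members, 28 sites in 6 genes, of which 21 were higher in young cultures, and 14 of the 28 were in ADAMTS3. The 6 sites of the ADAMTS18 promoter lay within 60 bp of each other in a CpG island on chromosome 18 (positions 4704482 to 4704541). Their mean per culture was 26.2 to 65.7% (median 60.6%) in young and 6.17 to 13.5% (median 9.75%) in old cultures, with no overlap and group means of 50.4 ± 18.9 and 9.78 ± 2.57% (SD, n = 6). The spread between young cultures was therefore wide, and the old cultures lay close together.

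The site at position 4704508 had the largest difference of all 94, with 25 to 100% (median 91.5%) in young and 0 to 25% (median 3%) in old cultures, which gave 68.8 ± 29.5 points on a mean of 12.2 reads. At position 4704482 all 6 old cultures were at 0 and the young cultures at 8 to 57% (median 22.5%). The 6 tested positions of the same window that were not listed were all higher in young cultures as well, by 13.7 points on average (20.9% against 7.22%). The opposite strand of the top site differed by 31.7 ± 30.1 points without being listed.

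TIMP2 encodes an inhibitor of MMPs that also takes part in activating MMP2. Its 7 listed sites lay within 592 bp on chromosome 19 (positions 54102947 to 54103538), in an intron of TIMP2 that was also annotated as exonic in KIAA1731NL, and all 7 were higher in young cultures. Their mean per culture was 28.7 to 45.3% (median 41.6%) in young and 6.14 to 23.9% (median 11.7%) in old cultures, without overlap, with group means of 38.9 ± 6.63 and 13.2 ± 6.42% (SD, n = 6). Single sites differed by 10 to 35.5 points. The largest was at position 54103357, with 33 to 75% (median 47.5%) in young and 0 to 40% (median 19.5%) in old cultures, and at position 54103538 alone the groups did not overlap (44 to 67% against 9 to 43%). Of the 6 unlisted positions between them, 5 were higher in young cultures and their mean difference was 14.1 points.

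**Figure D3:**
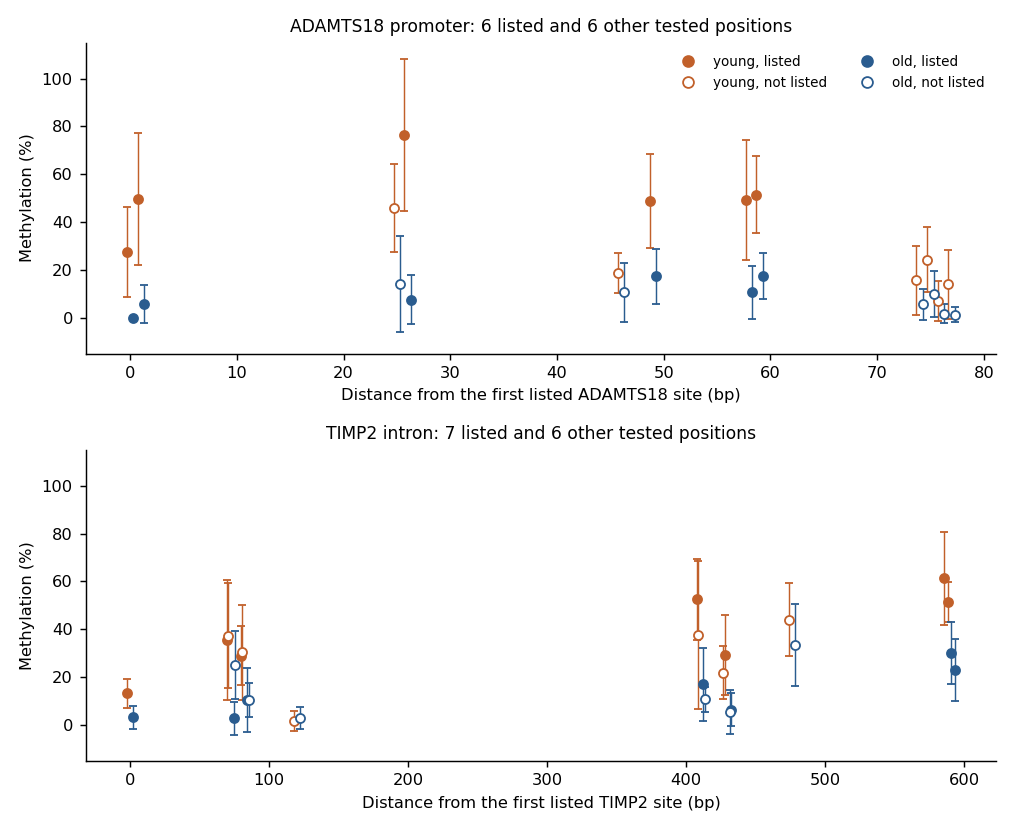
Mean methylation (%, ± SD over 6 cultures) of young and old cultures against distance in bp from the first listed site, for the ADAMTS18 promoter (top) and the TIMP2 intron (bottom); filled points are listed sites and open points other tested positions, with old points shifted slightly to the right. Every listed site has the young mean above the old mean, by 27.3 to 68.8 points in ADAMTS18 and by 10 to 35.5 points in TIMP2, and the open points mostly follow with smaller gaps.

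ADAMTS3, which removes the amino-terminal propeptide of procollagen, held 14 sites on chromosome 6, 7 in each direction. Of these, 10 lay in an intron stretch of 15.4 kb (positions 89206157 to 89221597) that had 41.1 tested positions per kb and a median mean coverage of 76.1 reads, against 14.2 reads over all tested sites. The listed share of the 634 tested positions there was 1.58%, beside 1.68% over the whole table. The 624 unlisted positions averaged 72.1% in young and 71.6% in old cultures, and the 10 listed sites 67.4 and 67.3%. Listed sites of opposite direction lay side by side, as at positions 89216266 (-10 ± 7.67 points) and 89216286 (10.2 ± 7.03 points). With the strands of each CpG merged these became -5.94 and -0.561 points, so the opposite direction was not kept. At the most deeply read of all 94 sites, the former, young cultures had 49 to 75% (median 67%) and old cultures 69 to 80% (median 75.5%) on a mean of 64.0 reads.

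The groups did not overlap at the ADAMTS3 intron position 89213001 (mean 39.0 reads), where young cultures had 67 to 82% (median 70%) and old cultures 54 to 61% (median 61%). Its opposite strand differed by -4.00 ± 12.9 points. Widest in the gene was position 89195030, 11.1 kb before that stretch, with 12 to 57% (median 31%) in young and 50 to 100% (median 68.5%) in old cultures. It and its listed neighbour at position 89195068 were higher in old cultures by 40.3 and 27.0 points (young minus old -40.3 and -27.0). The single promoter site (position 89461262) was higher in young cultures, with means of 20.2 and 7.33%.

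**Figure D4:**
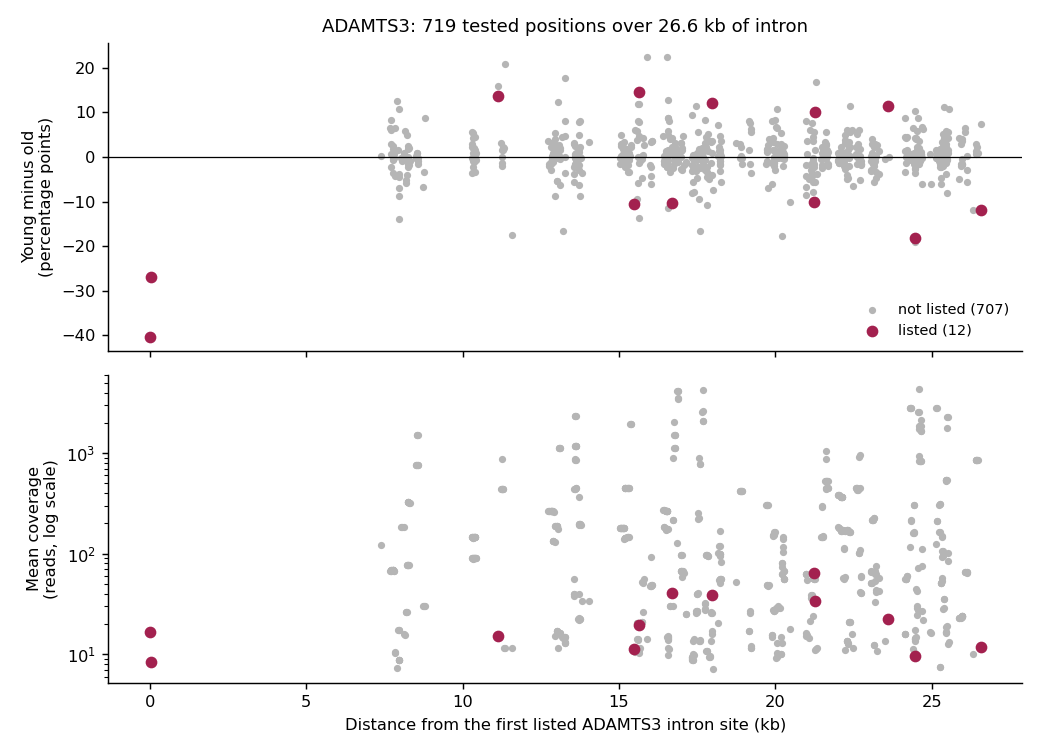
Young minus old methylation in percentage points (top) and mean coverage in reads on a log scale (bottom) at the 719 tested positions between the first and twelfth listed ADAMTS3 intron site, against distance in kb; dark points are the 12 listed sites and grey points the 707 others. Grey points centre near 0 and 30 of them reach 10 points or more in size without being listed.

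The other ADAMTS and ADAMTSL genes were higher in young cultures throughout. ADAMTS10, which acts on microfibrils, had a promoter CpG listed on both strands (chromosome 7, positions 18409044 and 18409045), with 36 to 100% (median 73%) and 67 to 100% (median 77.5%) in young against 29 to 80% (median 43%) and 14 to 67% (median 50%) in old cultures. Every culture had at least 10 reads at both, and all these counts were even. ADAMTS5, an aggrecan-cleaving enzyme, had 2 sites in a stretch annotated as promoter and exon on chromosome 1. At position 8812644 young cultures were at 20 to 50% (median 22%) and old cultures at 0 to 18% (median 9%), without overlap, on a mean of 22.2 reads. ADAMTSL2, a microfibril-binding protein, had an intron CpG listed on both strands (chromosome 11, positions 104483388 and 104483389), and at the former young cultures had 33 to 71% (median 52%) and old cultures 8 to 20% (median 14.5%), again without overlap. Another ADAMTSL2 site (17.3 points, 8.58 with strands merged) and an intron site of the procollagen proteinase ADAMTS14 (22.2 points) completed the group. All 6 young cultures read 100% at the ADAMTS14 site, but its opposite strand differed by 0.833 ± 35.0 points and the merged difference was 8.19 points. ADAM12, a membrane proteinase, was the only ADAM gene, with 2 intron sites 214 kb apart on chromosome 26 that were higher in old cultures, 75.5 against 93.0% and 74.5 against 89.0%. Their mean coverage was 8 and 9.25 reads. The 3 unlisted neighbours of the first averaged 4.11 points higher in young cultures, and the 2 of the second -5.25 points.

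Sites in MMP genes did not share a direction. The MMP15 promoter site (chromosome 18, position 26020270) was higher in young cultures, at 22 to 45% (median 31.5%) against 0 to 40% (median 0%), and an MMP15 intron site was higher in old cultures by 18.7 points (young minus old -18.7). Both are in a membrane-type MMP, as is MMP16, whose 2 intron sites differed by 24.8 and -30.5 points. At the latter (chromosome 14, position 76821031) the cultures of animal 4 were at 0 at both ages (22 and 18 reads) while the old median was 94%. The gelatinase MMP9 had an exon site 25.5 ± 21.8 points higher in young cultures, but its opposite strand (-9.33) and the mean of its 5 unlisted neighbours (-7.5) went the other way. MMP23B (18.2 points) was higher in young and the promoter site of TIMP4, another MMP inhibitor, in old cultures (2.83 against 16.0%). Around TIMP4 the 27 unlisted positions had means of 0.5 and 1.04%, and with the strands of the CpG merged the difference at the listed site was -4.72 points.

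Among matrix receptors, 6 genes with the integrin prefix held 8 sites. ITGA9, the alpha subunit of the tenascin-binding integrin, was higher in old cultures at 2 intron sites 43 bp apart on chromosome 22. At position 10951238, which had at least 10 reads throughout, young cultures were at 17 to 38% (median 27%) and old cultures at 0 to 67% (median 58%), with overlap that came from a single old culture at 0. At position 10951195 the ranges were 0 to 67% (median 31.5%) and 29 to 86% (median 58%) on a mean of 7.5 reads, the lowest of the 94 sites. The unlisted position between them had the same sign (-31.7 ± 32.5 points).

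ITGB5, a beta subunit that pairs with alpha V to bind vitronectin, had exon sites in both directions (24.5 and -11.5 points). The leukocyte integrin subunit ITGB2 (21.3), the hemidesmosome subunit ITGB4 (15.0), the laminin receptor subunit ITGA7 (13.3) and ITGBL1, an integrin beta-like secreted protein (10.8), were higher in young cultures by the points given. The groups overlapped at each of the 8 integrin sites, and the 6 animals moved together at 1 of them.

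Cadherins hold neighbouring cells together through calcium-dependent contacts, and 6 of their 8 listed sites were higher in old cultures. CDH13 encodes T-cadherin, which is anchored to the membrane by a lipid, and had 2 intron sites 134 bp apart on chromosome 18. At position 9196109 young cultures were at 0 to 14% (median 5%) and old cultures at 17 to 80% (median 33%), a difference of -35.5 ± 25.5 points. At position 9196243 the ranges were 0 to 12% (median 0%) and 17 to 50% (median 32%), a difference of -29.2 ± 11.0 points. The groups did not overlap at either site, on means of 7.83 and 9.17 reads. Of the 8 unlisted positions between them, 7 were higher in old cultures, and the means over the 8 were 8.83% in young and 16.5% in old cultures.

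CDH3, P-cadherin, had 2 sites annotated as promoter and intron (chromosome 18, positions 36096299 and 36096367), with young means of 36.3 and 5.50% and old means of 67.8 and 15.8%. CDH15, the cadherin of muscle cells, had a promoter and an exon site higher in young cultures (13.3 and 10.2 points) and an intron site higher in old cultures (-12.5 points). The promoter site had at least 10 reads in every culture, and young cultures had 14 to 40% (median 18.5%) and old cultures 0 to 17% (median 11.5%) there. At the CDH6 exon site all 6 old cultures read 100% against a young mean of 88.7% (75 to 100%, median 88%), a difference carried by 4 of the 6 animals. Coverage was even in every culture there (mean 14.2 reads), and the 2 unlisted neighbours differed by 0.833 points on average, the other way.

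The opposite strand and the close neighbours of a member share the comparison with it and were read from the same fragments or cultures, so they describe the locus and test nothing. The opposite strand of the CpG was itself tested for 47 of the 94 sites. It was listed for 14 of them, which made 7 CpGs with both strands on the list, always in the same direction. For the other 33, the opposite strand had the same sign at 26, and the mean difference there was 7.92 points in the direction of the listed strand, beside a mean size of 22.6 points at the listed strand itself. Summing the reads of both strands moved 16 of the 47 differences by over 1.5 times, all to smaller sizes, 5 of them in ADAMTS3, and changed the sign of 1. Besides those given above, they included FBN2 position 26726141 (20 to 11.9 points), TIMP2 position 54103019 (32.7 to 19.7), ADAMTS5 position 8812644 (17.2 to 11.2), MMP9 (25.5 to 11.3), the MMP15 intron site (-18.7 to -11.6), the CDH15 intron site (-12.5 to -4.72), the COL18A1 site higher in old cultures (-14.2 to -5.93) and ADAMTS3 positions 89210682 (14.5 to 5.77), 89213001 (12.2 to 7.54) and 89219483 (-18.2 to -7.63). Grouping sites no more than 500 bp apart gave 66 loci, 39 higher in young and 27 higher in old cultures by their mean. Of the 17 loci with several members, 14 held a single direction, and the mixed ones were 2 in ADAMTS3 and the LAMB2 locus. Unlisted tested positions existed within 250 bp of 58 loci, and at 45 of these their mean had the sign of the members, with a median over the loci of 4.84 points.

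The members nearest the P limit were the LAMB2 intron site (14.7 ± 13.8 points) and the ITGA9 site at position 10951238 (-21.0 ± 19.8), and the smallest differences were at ADAMTS3 position 89216266 and TIMP2 position 54102947 (-10 and 10 points). Between the members of a locus lay 41 tested positions that were not listed, and 17 of them differed by 10 points or more. The opposite strand in ADAMTS18 (31.7 ± 30.1), which met the recomputed rule without being on the list, TIMP2 position 54103376 (16.5 ± 16.3) and the position between the ITGA9 sites (-31.7 ± 32.5) were the nearest to the P limit among them.

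Per culture, the mean of the 58 sites higher in young cultures was 43.6 to 54.0% (median 50.2%) in young and 24.8 to 28.2% (median 26.9%) in old cultures. The mean of the 36 sites higher in old cultures was 37.8 to 49.9% (median 41.7%) in young and 59.2 to 66.4% (median 65.1%) in old cultures. The ages did not overlap in either set, which follows from how the sites were chosen.

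Genes outside the rule that work with these families were counted from lists of proteoglycans, other matrix glycoproteins, collagen-processing factors, integrin linkers and cadherin partners. As a background, 2293 genes had a listed site beside 21666 protein-coding symbols in RefSeq (10.6%), a ratio across different annotations, and the lists below were not tested against it. Of 21 symbols of collagen-processing factors, 3 (14.3%) had listed sites, a share near that background, and all 14 sites were higher in young cultures. PCOLCE, which enhances the removal of the collagen carboxyl propeptide, had 7 of them, SERPINH1, the collagen chaperone of the endoplasmic reticulum, had 5 and P4HB, a subunit of prolyl hydroxylase, had 2. Each gene held them in a single short stretch (positions 36492134 to 36492262, 55519099 to 55519118 and 51650342 to 51650356). Sites this close are not independent of each other, so the shared direction is that of 3 stretches. Integrin linkers had 9 of 25 genes (36.0%) with 19 sites higher in young and 9 in old cultures, and the cadherin partners 7 of 32 genes (21.9%, 29 of the symbols being in RefSeq) with 12 and 6 sites.

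Among the integrin linkers, PARVB, an actin-binding partner of integrin-linked kinase, was higher in old cultures at 6 of 6 sites, whereas TNS1 (tensin) and the adaptor BCAR1 were higher in young cultures at 4 of 4 each. All PARVB sites but position 115525173 lay between positions 115555028 and 115555075, and all BCAR1 sites but position 2623527 between positions 2621444 and 2621455. Of 35 other matrix glycoproteins, 13 (37.1%) had listed sites, 18 sites higher in young and 13 in old cultures. Here EMILIN2, an elastic fibre glycoprotein, was higher in old cultures at 5 of 5 sites, NID1, which links laminin to type IV collagen, was higher in young cultures at 3 of 3 promoter sites, and LTBP3, a TGF-beta-binding protein, held 6 and 4. The EMILIN2 sites lay between positions 37523555 and 37523625 and the NID1 sites between positions 8830401 and 8830412, so they too are close neighbours. Of 38 proteoglycan and hyaluronan genes (37 in RefSeq), 9 (23.7%) had listed sites, 8 and 5 by direction, and the CSPG4 exon CpG was higher in old cultures on both strands (50.5 against 81.0% and 52.0 against 76.5%). No lysyl oxidase gene had a listed site.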

How the data were processed

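RRBS was run on 12 cultures, 6 per age. Reads were trimmed with Trim Galore (version 0.3.7), checked with FastQC (version 0.11.1) and aligned with Bismark (version 0.13.1), per the submitters' processing notes and the study's methods. The authors deposited, for each cytosine with at least 5 reads in all 12 cultures, the methylation ratio (a fraction with 2 decimals) and the coverage (counts of reads, not normalized) per culture, and a list of sites with their annotation. The position used is the end coordinate of the file, counted from 1 on bosTau8. The list's own mean difference, P and class of change were not used.

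The column letters A and B were read as young and old because the study's supplementary lists name as more methylated at 5 months sites that are higher in A. Same-numbered cultures are of the same animal, which is the source of the pairing. Over all tested sites the deviations of same-animal cultures from their age means correlated at -0.00240 to 0.0899, those of different animals at -0.0498 to 0.0485, and any pair of cultures had ratios correlated at 0.931 to 0.949.

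The age difference was recomputed at every tested site as the mean of 6 paired differences, with the study's paired test (unadjusted P under 0.05) and a minimum difference of 0.1 inferred from the list, in Python 3.11.15 with scipy 1.17.1. Alternatives were limma 3.58.1 in R 4.3.3, an exact sign-flip test over 64 sign patterns, a quasi-binomial model of reads, an unpaired test, an arcsine scale, coverage minimums, merged strands, and each animal left out. The paired, unpaired, limma, sign-flip, quasi-binomial and arcsine tests were also run on simulated data. The coverage minimums, merged strands and left-out animals were not. The members and gene lists were chosen with earlier results of these data known. All 41 genes are named. The sites picked for description were those of genes with 3 or more sites and the largest difference of each family. Added to them were, per direction, the 5 largest among sites with 10 reads throughout. Some of these sites are given with a mean or difference only, or without a value of their own. Other ranges were chosen after their values were seen. All 41 symbols matched RefSeq gene names (assembly ARS-UCD2.0, names only). Sequences and gene structures were not used here.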

Additional observations from a re-analysis of the deposited data

Results flagged for a closer look

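At the 58 sites picked for description, 12 of 114 groups of 6 cultures held a culture far from the other 5, by Dixon's 95% critical value for 6 samples. For independent normal values it flags about 1 in 20 groups, or 5.7 of 114. The ratios here are bounded, rest on few reads and include neighbouring sites, so 5.7 is not their chance expectation. In FBLN5, the young culture of animal 2 had 80% (others 17 to 40%) and the old culture of animal 3 had 67% (others 88 to 100%, on 6 reads). In FBLN1 at position 116646163, the old culture of animal 5 had 25% (others 57 to 75%, on 8 reads). In ITGA9 at position 10951238, the old culture of animal 3 had 0% (others 43 to 67%, on 13 reads).

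In ADAMTS3, the young culture of animal 5 had 66% at position 89211727 (others 79 to 86%), and at position 89213001 the young culture of animal 6 had 82% (others 67 to 72%) and the old culture of animal 4 had 54% (others 59 to 61%). In ADAMTS5 at position 8812644, the young culture of animal 5 had 50% (others 20 to 22%). In THBS2 at position 104757291, the old culture of animal 3 had 64% (others 40 to 47%). In TIMP2, the young culture of animal 6 had 25% at position 54102947 (others 10 to 14%), the old culture of animal 4 had 17% at position 54103019 (others 0%), and the young culture of animal 1 had 67% at position 54103538 (others 44 to 52%, on 6 reads). These cultures belonged to each of the 6 animals, and what set them apart was not tested.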

How the results depend on the processing

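All 94 sites met the rule, so limits on depth or size only count the members that pass them. These were 14 with at least 10 reads in every culture, 2 with at least 20 and 35 with a minimum difference of 25 points. The number of the 94 that met the rule fell to 46 with the exact sign-flip test, and to 0 with Benjamini-Hochberg adjustment over all tested sites (smallest adjusted P 0.889 with the authors' test and 0.848 with limma, which called all 94 unadjusted). It was 55 to 62 without each animal in turn, where the smaller n is part of the change. Without pairing (no replicate block) 74 met it, with the quasi-binomial model 65, on the arcsine scale 84, and with strands merged 65 of 87 CpGs. The opposite strand was tested for only 47 of the 94 sites. CpGs without it entered the merged count, and the merged median below, unchanged, and so met the rule by construction. The number higher in young cultures was 10 of 14, 1 of 2 and 21 of 35 under the first 3 settings and 51 of 80 without ADAMTS3. The median size was 11.1 points with at least 20 reads, 19 with a mean coverage of at least 10, 31.5 with the larger minimum and 17.3 with strands merged. Of 437 values of single sites under other settings, 436 kept their direction. Only the ADAMTS3 site at position 89216286 reversed, to -0.561 points with strands merged, and the cause was not tested. With an animal left out, the mean could not change sign at a site with a paired P under 0.05. Those values kept their direction by construction, so the count of 436 is not read as a sign of stability. After seeing the data, ratios were also brought to a common distribution and ADAMTS3 was left out. With the former 85 sites met the rule and 58 were higher in young cultures, and that setting moved the median of all tested sites by -0.173 points. Depth limits single sites, since few had 10 reads throughout.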
